A study of Mus musculus with 6 samples.

Results

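Kcnj9, Ano3, Sulf2, Piwil4, Creb5, Spidr, Bend5 and Fabp5 are 8 of the 31053 genes counted in mouse retinas with oxygen-induced retinopathy (OIR) and in control retinas. They were chosen by their difference between OIR and control samples in bipolar cells, so their OIR and control levels are given here as a description, without a test. The OIR pups lived in 75% oxygen between P7 and P12 and returned to normal air for 5 days, and the control pups stayed in normal air. All retinas were taken at P17, each sample pooled the retinas of 2 mice, and each group had 3 samples. No strain, promoter, deletion or agent other than oxygen is named for these samples in the sources used here. The labels name the tissue as retinal endothelial cells of adult mice, but the cells were those of the whole retina at P17, and rod-like cells, marked by Nrl and Gnat1, were the most numerous.

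Bipolar cells are the interneurons that carry signals from photoreceptors to the inner retina. Rod bipolar cells collect from rods and depolarize in light through the glutamate receptor mGluR6 and the channel Trpm1, and cone bipolar cells collect from cones and fall into ON and OFF types. In OIR, high oxygen stops the growth of retinal vessels, and the return to normal air leaves the poorly perfused inner retina, where bipolar cells lie, short of oxygen. Kcnj9 encodes GIRK3, a subunit of G protein-gated inward rectifier potassium channels, and Ano3 encodes a membrane protein of the anoctamin family. Sulf2 is a secreted sulfatase that trims sulfate groups from heparan sulfate and so alters the binding of growth factors. Piwil4 is an Argonaute family protein of the piRNA pathway known from the germline, Creb5 is a transcription factor that binds cyclic AMP response elements, Spidr is a scaffold protein of DNA repair by homologous recombination, and Bend5 is a DNA-binding repressor with a BEN domain. Fabp5 is a cytosolic carrier of fatty acids.

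RNA was counted as unique molecular identifiers (UMIs), 1 per captured RNA molecule, in single cells. After filtering, 38569 cells were clustered without the 8 genes among the clustering genes, of which Sulf2, Creb5 and Fabp5 would otherwise have been used. Clusters were named by marker genes, with "-like" added. There were 2058 rod bipolar-like cells, between 157 and 819 a sample, led by Car8, Trpm1, Sebox and Prkca, and 3433 cone bipolar-like cells in 6 clusters, between 174 and 1592 a sample. Raw UMIs were summed per sample over the cells of a type and are given as CPM, the UMIs of a gene scaled to a common total for every sum, which held between 987824 and 5472132 UMIs in rod bipolar-like and between 994383 and 9493726 in cone bipolar-like sums. Control replicates 2 and 3 carried Xist RNA and the other 4 samples carried Y-linked RNA. Control replicate 1 was thus the only control sample that matched the OIR samples in sex, so sex and group were largely confounded. Over all kept cells both replicate 1 samples were deeper than the rest, but not within rod bipolar-like cells. There the median UMIs a cell were 8443, 10280 and 9833 in OIR and 6768, 8214 and 6411 in control replicates 1, 2 and 3. Of 38408 distinct barcode sequences, 161 occurred in more than 1 sample. In a sum, fewer cells with a transcript and less transcript per cell cannot be told apart.

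In GRCm38 the genes lie on 7 chromosomes. Kcnj9 (chr1:172320501-172329318), Ano3 (chr2:110655201-110950923), Sulf2 (chr2:166073089-166155663), Piwil4 (chr9:14696230-14740733) and Spidr (chr16:15889224-16146851) are on the minus strand. Creb5 (chr6:53287270-53700376), Bend5 (chr4:111415006-111460298) and Fabp5 (chr3:10012548-10016607) are on the plus strand. Sequences upstream of the start site are shown because the genes differed in both directions between the same samples, which makes their promoters of interest. RefSeq (GRCm38.p6) held 10 windows for 6 of the 8 genes, of which the 250 bases before each start were searched on both strands. The letters searched were ACGTG, the core of the hypoxia response element, TGACGTCA, the cyclic AMP response element, and TAATCC, the core bound by the photoreceptor and bipolar factors OTX2 and CRX. ACGTG was in 3 of the 10 windows, at Ano3, Sulf2 and Creb5, and in 16.6% of all 32851 windows. TGACGTCA was in the Creb5 window, overlapping ACGTG there, and in 1.55% of all windows, and TAATCC was in the Kcnj9 window and in 6.25% of all windows. The upstream stretches outside the annotated gene follow for Kcnj9, lower in OIR rod bipolar-like sums, and for Piwil4 and Creb5, higher in OIR cone bipolar-like sums. They are in lower case with the letters searched in capitals, from 5′ to 3′.
Kcnj9, chr1:172329323-172329572, minus strand: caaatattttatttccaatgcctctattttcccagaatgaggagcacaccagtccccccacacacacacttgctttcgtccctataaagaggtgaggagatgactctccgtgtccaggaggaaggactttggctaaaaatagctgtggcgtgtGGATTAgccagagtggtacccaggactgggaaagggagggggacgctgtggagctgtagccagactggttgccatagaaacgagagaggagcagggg
Piwil4, chr9:14740734-14740922, minus strand: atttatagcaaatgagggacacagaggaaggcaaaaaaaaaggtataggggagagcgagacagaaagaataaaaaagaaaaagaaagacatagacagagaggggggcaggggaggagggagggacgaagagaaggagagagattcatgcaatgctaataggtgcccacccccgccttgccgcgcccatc
Creb5, chr6:53287053-53287269, plus strand: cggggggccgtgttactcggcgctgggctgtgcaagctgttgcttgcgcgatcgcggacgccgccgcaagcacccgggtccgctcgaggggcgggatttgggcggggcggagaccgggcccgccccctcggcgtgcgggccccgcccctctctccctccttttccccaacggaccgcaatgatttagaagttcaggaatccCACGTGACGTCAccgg
The capitals in the Kcnj9 stretch are TAATCC read on the other strand, those in the Creb5 stretch are ACGTG on both strands running into TGACGTCA, and the Piwil4 stretch held none of the 3. A match is a run of letters and not a measured binding site.

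The 2 membrane protein genes were lower in OIR rod bipolar-like sums, and the other 6 were higher in OIR in either or both bipolar classes (the plot of CPM by sample). In rod bipolar-like sums the OIR and control samples did not overlap for 7 of the 8 genes, and the same held for 19.2% of the 9323 genes tested there. They did not overlap in cone bipolar-like sums for 6 of the 8, against 17.6% of the 10261 genes tested. By edgeR's quasi-likelihood test, 225 genes (2.41%) were called (adjusted p below 0.05 by Benjamini-Hochberg, absolute log2 fold change 0.25 or more) in rod bipolar-like sums and 87 (0.848%) in cone bipolar-like sums. With the replicate number as a block, 533 genes were called in cone bipolar-like sums, and the count in rod bipolar-like sums rose too. Samples of equal number deviated together in both classes. Creb5 in rod bipolar-like and Ano3 in cone bipolar-like sums did not pass the filter on low counts. Of the 7 that passed in each, 5 were called in rod bipolar-like sums (Kcnj9, Ano3, Sulf2, Piwil4 and Spidr) and 4 in cone bipolar-like sums (Creb5, Spidr, Bend5 and Fabp5). These counts follow from how the genes were chosen.

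**Figure D1:**
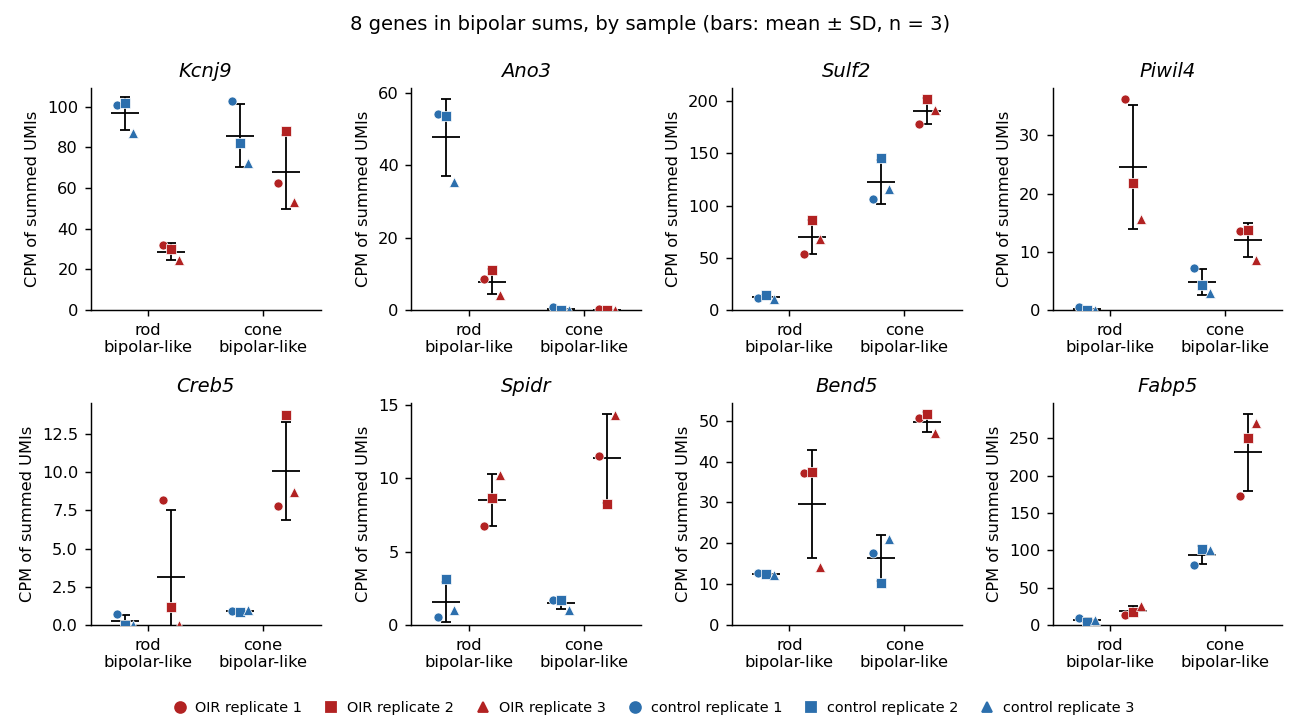
CPM of the 8 genes in rod bipolar-like and cone bipolar-like sums (y axes from 0, each gene on its own scale); points are samples (red OIR, blue control, shape gives the replicate number), and black bars give mean ± SD of 3 samples. Kcnj9 and Ano3 lie lower in OIR rod bipolar-like sums, and Piwil4 lies above every control sample in all 3 OIR rod bipolar-like sums.

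Kcnj9 was about equally abundant in both bipolar classes of control retinas, and its level in rod bipolar-like sums was lower in every OIR sample. It stood at 32.1, 30.0 and 24.4 CPM in OIR replicates 1, 2 and 3 and at 101, 102 and 87.1 CPM in control replicates 1, 2 and 3. The ratio of the pooled UMIs was 0.304 (exact 95% interval 0.262 to 0.352, counting error only), and the fitted log2 fold change was -1.76 ± 0.16 (SE). Kcnj9 in cone bipolar-like sums read 62.6, 88.1 and 53.2 CPM in OIR and 103, 82.3 and 72.4 CPM in control samples. Those groups overlapped, and the log2 fold change was -0.45 ± 0.19. A Kcnj9 UMI was found in 21.02% to 23.9% of rod bipolar-like cells in OIR samples and in 39.0% to 51.2% in control samples, and in at most 0.519% of rod-like cells, which served as the level of carried-over RNA.

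Ano3 was a rod bipolar gene in control retinas, far above every other cell type there. It read 8.59, 10.96 and 4.07 CPM in OIR and 54.1, 53.7 and 35.4 CPM in control rod bipolar-like sums, so that the highest OIR sample lay well below the lowest control sample. The pooled ratio was 0.1602 (0.122 to 0.208), and the log2 fold change was -2.61 ± 0.27. Ano3 was seen in 3.82% to 7.61% of OIR and 18.9% to 29.3% of control rod bipolar-like cells. The cone bipolar-like sums held 2 Ano3 UMIs in OIR replicate 1 and 8 in control replicate 1 and none in the other 4 samples, so no shift could be read.

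The median depth of rod bipolar-like cells differed between the groups, at 8443 to 10280 UMIs a cell in OIR and 6411 to 8214 in control samples, so shares of cells were also taken after thinning every cell to 1000 UMIs. At that depth Kcnj9 was seen in 1.95% to 3.53% of OIR and 6.37% to 8.71% of control rod bipolar-like cells. Ano3 was seen in 1.24% in OIR replicate 1, in none of the thinned cells of OIR replicates 2 and 3, and in 3.82% to 4.54% in control samples. Both genes were thus seen in fewer OIR cells at equal depth. Among the genes that were higher in OIR, the thinned rod bipolar-like shares of Spidr (0.529% to 2.27% in OIR, 0% to 0.637% in control samples), Creb5 (0% to 0.529% and 0% to 0.123%), Bend5 (0.649% to 3.41% and 1.23% to 2.44%) and Fabp5 (1.41% to 2.84% and 0.610% to 2.55%) overlapped. In cone bipolar-like cells the thinned shares of Kcnj9 (4.63% to 7.51% and 7.14% to 9.86%), Sulf2 (13.9% to 15.7% and 8.52% to 15.5%) and Piwil4 (0.952% to 1.42% and 0.552% to 1.19%) overlapped.

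Sulf2, the heparan sulfate sulfatase, was a cone bipolar gene in control retinas and was higher in both classes in OIR, more so in fold in rod bipolar-like sums. There it read 53.9, 86.5 and 68.6 CPM in OIR and 12.1, 14.8 and 11.1 CPM in control samples. The pooled ratio was 5.14 (4.12 to 6.46), and the log2 fold change was 2.39 ± 0.21. Sulf2 in cone bipolar-like sums read 178, 202 and 191 CPM in OIR and 106, 146 and 116 CPM in control samples. The groups stood apart there too, at a log2 fold change of 0.60 ± 0.14. Thinned to 1000 UMIs, Sulf2 was seen in 3.88% to 9.66% of OIR rod bipolar-like cells, at most 1.60% of control rod bipolar-like cells and at most 0.185% of rod-like cells in any sample.

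Piwil4, the piRNA pathway gene, was nearly absent from control rod bipolar-like cells and present at a low level in those of every OIR sample. Its UMIs there numbered 173, 38 and 23 in OIR replicates 1, 2 and 3, or 36.3, 21.9 and 15.6 CPM. Control replicate 1 had 3 UMIs (0.548 CPM), and control replicates 2 and 3 had none, which allows up to 2.33 and 3.04 CPM at 3 UMIs a sample. The pooled ratio was 75.7 with a wide counting interval, 25.6 to 370, and the fitted log2 fold change of 5.89 ± 0.60 depends on the prior count added to the zeros. Between 10.8% and 21.04% of OIR rod bipolar-like cells held a Piwil4 UMI, against at most 0.366% in control samples and at most 0.15% of rod-like cells in any sample.

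Piwil4 was already present in control cone bipolar-like sums and was higher in OIR by a smaller fold. It read 13.6, 13.8 and 8.69 CPM in OIR and 7.27, 4.29 and 3.02 CPM in control samples, so the groups stood apart at a log2 fold change of 0.98 ± 0.34. Mueller-like sums went the other way, with 2.14, 1.74 and 2.12 CPM in OIR and 4.28, 7.81 and 9.35 CPM in control samples. There every OIR sample was below every control sample, at a log2 fold change of -1.75.

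Creb5, the CREB family factor, was higher in OIR in cone bipolar-like sums, where its UMIs were few in control samples. Its UMIs numbered 52, 20 and 17 in the OIR samples (7.77, 13.8 and 8.69 CPM) and 9, 1 and 1 in the control samples (0.948, 0.858 and 1.01 CPM). The groups stood apart, with a pooled ratio of 9.34 (4.97 to 19.4) and a log2 fold change of 3.22 ± 0.44. In rod bipolar-like sums the signal came from 1 library: 39 UMIs in OIR replicate 1, 2 in OIR replicate 2 and none in OIR replicate 3, against 4, 0 and 0 in control samples. The groups overlapped there, and the log2 fold change was 3.00 ± 1.04 with all samples and 0.19 without OIR replicate 1.

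Creb5 was most abundant in Mueller glia, at 128, 109 and 149 CPM in OIR and 35.1, 50.4 and 54.3 CPM in control Mueller-like sums, which also stood apart. In rod bipolar-like sums the 7 listed Mueller markers added up to 256 to 287 CPM in OIR and 131 to 237 CPM in control samples. Aqp4 (43.0 to 72.6 against 8.59 to 14.8 CPM), Vim and Slc1a3, 3 of the 7, did not overlap. Glul, Rlbp1, Dkk3 and Slc3a2 overlapped, and none of the 7 was at 0 in all 6 samples. The same list overlapped in cone bipolar-like sums, at 279 to 291 and 240 to 381 CPM. There 2 of the 7, Vim (19.3 to 24.8 against 7.04 to 15.3 CPM) and Slc1a3 (8.82 to 13.1 against 0 to 8.58 CPM), stood apart and were higher in OIR. Aqp4 overlapped there, at 2.56 to 2.84 against 2.57 to 4.02 CPM. Creb5 in rod-like sums was also apart, at 0.655 to 1.15 CPM in OIR and 0.103 to 0.416 CPM in control samples. The part of Mueller or carried-over RNA in the Creb5 values was not tested.

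Spidr, the recombination scaffold, was low throughout and higher in OIR in both bipolar classes by a like fold. In rod bipolar-like sums it had 32, 15 and 15 UMIs in OIR (6.71, 8.65 and 10.2 CPM) and 3, 4 and 1 in control samples (0.548, 3.11 and 1.01 CPM). In cone bipolar-like sums it read 11.5, 8.26 and 14.3 CPM in OIR and 1.69, 1.72 and 1.01 CPM in control samples. The groups stood apart in both, with log2 fold changes of 2.80 ± 0.54 and 2.76 ± 0.39. After thinning, the rod bipolar-like shares of cells overlapped. Rod-like sums also stood apart, at 2.61 to 3.56 CPM in OIR and 1.28 to 2.37 CPM in control samples, and the part of carried-over RNA was not tested. Without control replicate 1 the rod bipolar-like value was 1.86, and with a term for sex it was 3.71. The first left only controls of the other sex, and the second rests on control replicate 1 alone among controls.

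The end of Spidr overlaps the end of Cebpd, a stress-responsive transcription factor gene on the other strand, by 1808 bases. The study's methods name Cell Ranger with default parameters and do not state which strand was counted. Cebpd read 11.9, 16.7 and 23.1 CPM in OIR and 6.396, 3.11 and 3.04 CPM in control rod bipolar-like sums. In cone bipolar-like sums it read 15.8, 15.1 and 23.5 CPM in OIR and 12.2, 9.43 and 9.05 CPM in control samples. Cebpd thus stood apart in the same direction as Spidr in both, while in Mueller-like sums, where Cebpd was far higher at 591 to 1221 CPM, both genes overlapped between the groups. Whether reads of 1 gene were counted for the other was not tested.

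Bend5, the BEN domain repressor, was higher in OIR cone bipolar-like sums with little spread, at a pooled ratio of 2.91 (2.46 to 3.44). It read 50.7, 51.6 and 47.0 CPM in OIR and 17.7, 10.3 and 21.1 CPM in control samples, at a log2 fold change of 1.52 ± 0.22. Rod bipolar-like sums held 37.1, 37.5 and 14.3 CPM in OIR and 12.8, 12.4 and 12.2 CPM in control samples. There OIR replicate 3 lay only just above the control samples, and the log2 fold change was 1.25 ± 0.31. Rod-like sums held far less, 3.46 to 5.995 CPM in OIR and 1.24 to 2.18 CPM in control samples, and also stood apart.

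Fabp5, the fatty acid carrier, was higher in OIR in both classes and far more abundant in cone bipolar-like sums. It read 172, 251 and 271 CPM in OIR and 80.5, 102 and 101 CPM in control cone bipolar-like sums, at a log2 fold change of 1.25 ± 0.17. Rod bipolar-like sums held 13.2, 17.9 and 25.8 CPM in OIR and 9.69, 4.67 and 7.09 CPM in control samples. Both pairs of groups stood apart, and the rod bipolar-like log2 fold change was 1.12 ± 0.33. Over the alternatives that value ran from 0.81 with a term for sex to 1.84 with replicates 2 and 3 alone. Replicates 2 and 3 alone differ in sex between the groups, and the sex term rests on control replicate 1 alone among controls. Thinned to 1000 UMIs, Fabp5 was seen in at least 14.8% of OIR and at most 12.7% of control cone bipolar-like cells of each sample. Fabp5 was also seen in up to 5.35% of thinned rod-like cells, above its share in rod bipolar-like cells, so its rod bipolar-like level is not separated from carried-over RNA. That rod-like level itself stood apart, at 43.2 to 53.7 CPM in OIR and 29.0 to 37.8 CPM in control samples.

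**Figure D2:**
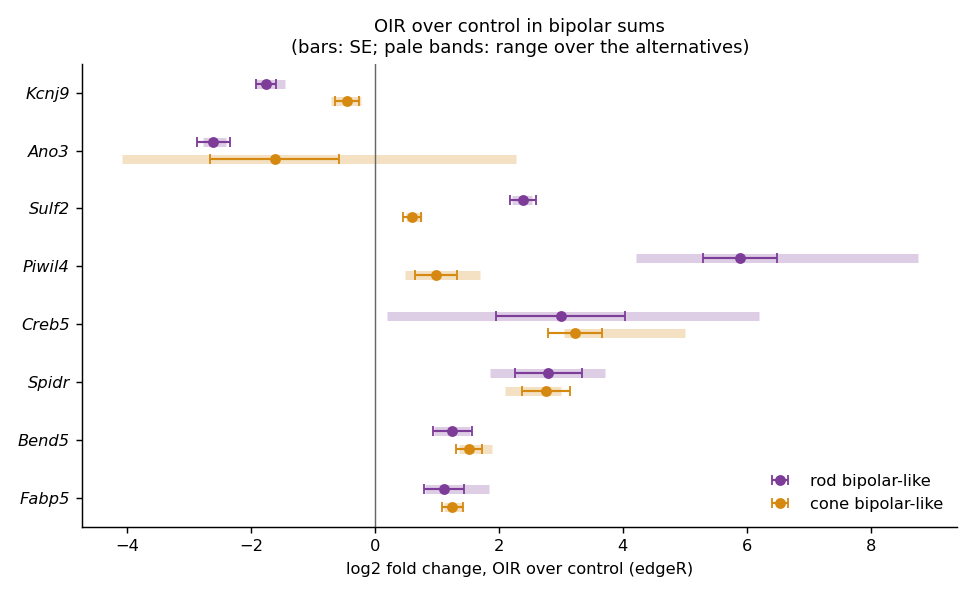
Log2 fold changes of OIR over control from edgeR (x axis) for the 8 genes in rod bipolar-like (purple) and cone bipolar-like (orange) sums; bars are SE, and pale bands span the values under the alternative settings. Ano3 in cone bipolar-like sums is the only value whose band crosses 0, and the Creb5 band in rod bipolar-like sums reaches down to 0.19.

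Markers of other cells moved with the groups in some bipolar sums. The cone bipolar list in rod bipolar-like sums added up to 2150 to 2854 CPM in OIR and 1653 to 1908 CPM in control samples, but 1 of its 12 genes stood apart, and none of the 12 was at 0 in all samples. The sums of 5 horizontal cell markers were 9.22 to 10.2 and 0.778 to 6.58 CPM, with Onecut1 and Lhx1 at 0 in all samples. Lens crystallin markers were found in OIR replicate 2, at 91.7 CPM in rod bipolar-like and 181 CPM in cone bipolar-like sums, and at most at 1.36 CPM in the other 5 samples. In cone bipolar-like sums the 9 rod bipolar markers added up to more in OIR (2466 to 2753 against 2278 to 2435 CPM). Gene by gene, 2 of the 9 stood apart higher and 1, Trpm1, lower. The 12 cone bipolar markers (2348 to 2547 against 2594 to 2973 CPM), the 6 ganglion cell markers (5.51 to 7.67 against 16.1 to 24.0 CPM) and the 9 vascular endothelial markers (33.7 to 59.0 against 64.4 to 89.0 CPM) added up to less. Of the 12 cone bipolar genes, 3 stood apart lower and 3 higher. Of the ganglion genes, 1 stood apart lower (Thy1) and 1 higher (Pou4f1), and of the vascular endothelial genes 1 did, lower (Esam). None of these genes was at 0 in all samples. The part of these RNAs in the values of the 8 genes was not tested.

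Within the same retinas, rod bipolar-like and cone bipolar-like sums were compared directly, with the sample as a block, to ask which class carries each gene. This contrast did not choose the genes, and they were kept out of the clustering, but the 2 classes were drawn by clusters of other genes. Fabp5 and Sulf2 were higher in cone bipolar-like sums in 6 of 6 samples, with log2 differences (rod minus cone) of -3.41 ± 0.11 (edgeR adjusted p = 1.8e-14) and -1.90 ± 0.20 (edgeR adjusted p = 1.9e-07). Bend5 was higher in cone bipolar-like sums in 5 of 6 samples, at -0.45 ± 0.15 (edgeR adjusted p = 0.019), a call lost with DESeq2, with thinning, without OIR replicate 3 and without the sample block. Kcnj9 (-0.29, edgeR adjusted p = 0.20), Piwil4 (0.48, edgeR adjusted p = 0.39) and Spidr (-0.41, edgeR adjusted p = 0.19) did not pass. For Piwil4 this value joins opposite directions. Its rod bipolar-like level was the higher one in 3 of 3 OIR samples and the lower one in 3 of 3 control samples. The Kcnj9 value joins unlike groups as well, with the rod bipolar-like level lower in 3 of 3 OIR and higher in 2 of 3 control samples. For Sulf2 the direction was the same in both groups but the gap was not. Its rod and cone bipolar-like means were 12.7 and 122.5 CPM in control and 69.6 and 190.5 CPM in OIR samples. Among all 9814 genes tested, 39.3% differed between the classes, and 3 of the 6 members tested did.

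Ano3 and Creb5 did not pass the filter of that fit and were compared by an exact sign-flip permutation test of log2(CPM + 1) over the 6 samples, two-sided. Ano3 was higher in rod bipolar-like sums in 6 of 6 samples, by 4.11 ± 1.38 (SD, n = 6, exact sign-flip p = 0.0312, the smallest 6 samples allow). The Ano3 value joins unlike groups, with rod bipolar-like means of 47.7 CPM in control and 7.87 CPM in OIR samples. Creb5 was higher in cone bipolar-like sums in 5 of 6 samples, at a rod minus cone difference of -1.34 ± 1.38 (SD, n = 6, exact sign-flip p = 0.0625). In control replicates 2 and 3 the rod bipolar-like sums held no Creb5 UMI, which allows up to 2.33 and 3.04 CPM. The cone bipolar-like control levels were 0.858 to 1.01 CPM, so the order in those replicates is not resolved.

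The 8 genes had different homes among the 9 cell types with enough cells in every sample (the plot over cell types). In control samples Kcnj9 was highest in rod bipolar-like (96.7 ± 8.33 CPM, SD, n = 3), amacrine-like (86.5 ± 7.07) and cone bipolar-like sums (85.8 ± 15.5), which overlapped one another and stood clear of RPE-like sums (6.69 ± 5.96). Ano3 stood at 47.7 ± 10.7 CPM in rod bipolar-like sums and at 3.39 ± 2.99 CPM in amacrine-like sums, next in order and clear of it. Sulf2 was highest in cone bipolar-like sums (122 ± 20.8 CPM) and was followed by Mueller-like (18.7 ± 3.58), amacrine-like (17.7 ± 12.04) and rod bipolar-like sums (12.7 ± 1.89), which overlapped. Rod bipolar-like cells were thus not the first home of Sulf2 in control retinas.

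The nucleic acid-binding genes and Fabp5 were led by other cells in control samples. Piwil4 was highest in Mueller-like (7.14 ± 2.60 CPM) and cone bipolar-like sums (4.86 ± 2.18), which overlapped, and Creb5 in Mueller-like sums (46.6 ± 10.2), clear of microglia-like sums (4.03 ± 3.62). Spidr was highest in microglia-like (18.6 ± 8.38 CPM) and Mueller-like sums (12.6 ± 4.11), which overlapped. Bend5 was highest in cone-like sums (61.2 ± 12.5 CPM), clear of cone bipolar-like sums (16.4 ± 5.54), and Fabp5 in amacrine-like sums (192 ± 8.86 CPM), clear of cone bipolar-like sums (94.4 ± 12.1). Among the 9 types, control rod bipolar-like sums had rank 6 for Piwil4, 5 for Creb5, 6 for Spidr, 4 for Bend5 and 8 for Fabp5. In OIR samples the order differed for Piwil4, at 24.6 ± 10.6 CPM in rod bipolar-like, 12.02 ± 2.88 CPM in cone bipolar-like and 2.00 ± 0.223 CPM in Mueller-like sums (SD, n = 3). Ano3 in OIR amacrine-like sums (6.20 ± 7.85 CPM) overlapped rod bipolar-like sums (7.87 ± 3.50 CPM).

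**Figure D3:**
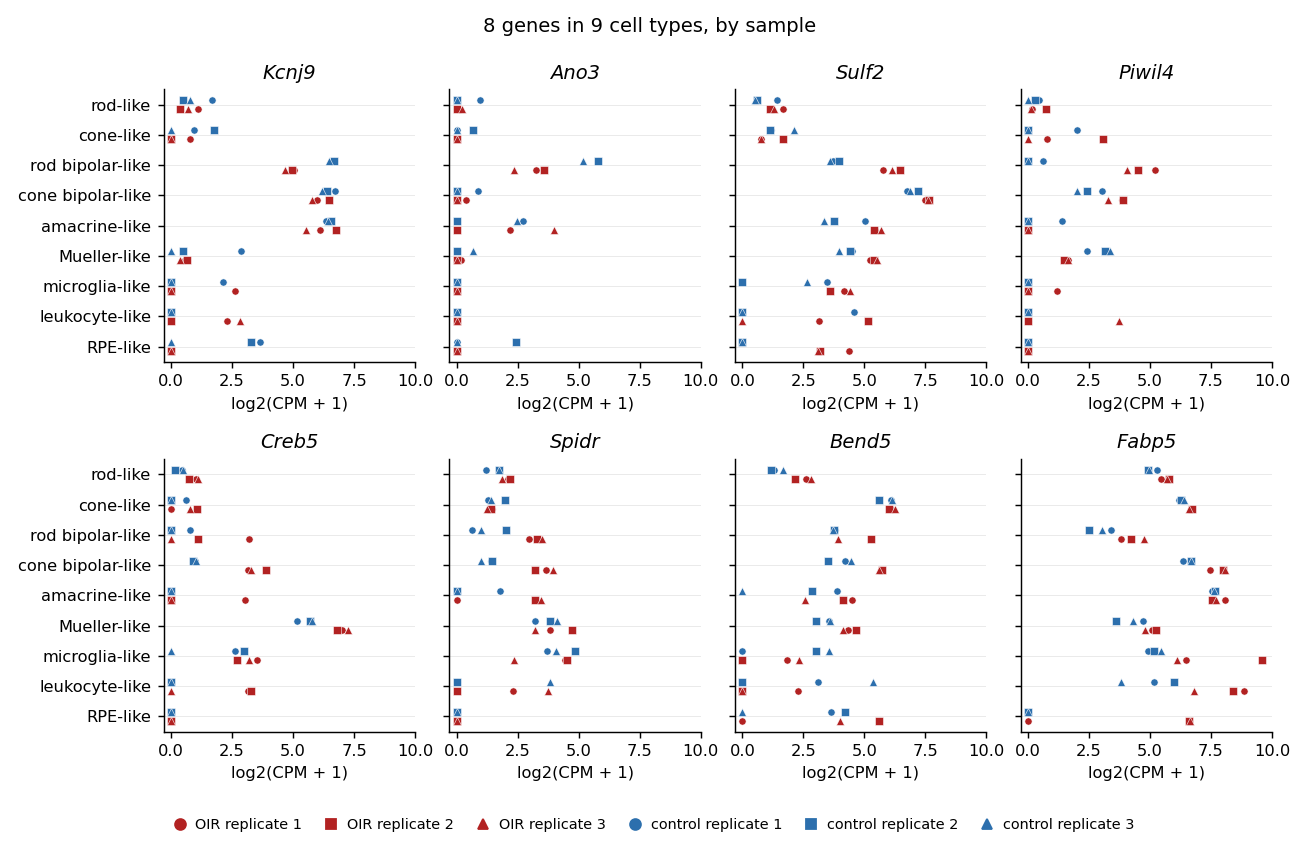
Levels of the 8 genes in 9 cell types as log2(CPM + 1) (x axis), 1 point per sample (red OIR, blue control, shape gives the replicate number). Ano3 stands out in control rod bipolar-like cells, Creb5 in Mueller-like cells and Bend5 in cone-like cells, and Piwil4 is higher in OIR in both bipolar classes and lower in OIR in Mueller-like cells.

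Outside bipolar cells the differences varied by gene, and Fabp5 and Sulf2 stood apart higher in OIR in several types. In leukocyte-like sums Fabp5 read 110 to 454 CPM in OIR and 13.2 to 62.55 CPM in control samples. Sulf2 stood apart in microglia-like (11.1 to 20.1 against 0 to 10.2 CPM) and RPE-like sums, the latter on 3 OIR UMIs. Fabp5 overlapped in amacrine-like and RPE-like sums, and Sulf2 in rod-like, cone-like and leukocyte-like sums. In cone-like sums Bend5, at 62.9 to 75.9 CPM in OIR and 46.8 to 69.0 CPM in control samples, overlapped, while Fabp5 (96.8 to 105 against 72.5 to 82.1 CPM) stood apart. In amacrine-like sums Kcnj9 overlapped (45.1 to 108 against 79.7 to 93.8 CPM) and Sulf2 stood apart (41.6 to 50.1 against 9.05 to 31.4 CPM), on 27 UMIs in all OIR samples together. In Mueller-like sums Sulf2 (36.6 to 44.2 against 14.6 to 21.2 CPM), Bend5 (16.4 to 24.4 against 7.03 to 11.1 CPM) and Fabp5 (27.0 to 36.9 against 11.3 to 25.5 CPM) stood apart and were higher in OIR. In microglia-like sums Fabp5 read 87.0, 766 and 68.3 CPM in OIR and 28.9, 35.0 and 42.2 CPM in control samples, so that OIR replicate 2 held most of that difference.

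The 8 genes were also read in each of the 6 clusters of cone bipolar-like cells, as a description (the plot by cluster). Cluster 8 (837 cells) was led by Kcng4, Neurod2, Htr3a and Sox6, cluster 9 (719) by Adarb2, Cntn5 and Gabrr3, cluster 10 (653) by Grik1, Otor and Fezf2, cluster 11 (601) by Cck, Reln and Vsx1, cluster 12 (392) by Slit2, Irx6 and Zfhx4, and cluster 18 (231) by Igfn1, Vsx1 and Fn1. Fabp5 was higher in OIR without overlap in 6 of the 6 clusters, and Sulf2, Spidr and Bend5 in 4 of the 6. Creb5 stood apart in 2, Kcnj9 in 2 and Piwil4 in 1, and Ano3 in 0. Over all 10261 genes tested in whole cone bipolar-like sums 17.6% stood apart, and the share by cluster was not counted. The clusters are parts of the sums in which the 8 genes were chosen. Some clusters held as few as 12 cells of a sample, so an overlap there says little.

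Creb5 was concentrated in cluster 8. Of its 89 UMIs in OIR cone bipolar-like cells 77 (86.5%) lay in that cluster, which held 28.1% of those cells, and of 11 control UMIs 8 lay there. Its level in cluster 8 was 22.8, 32.3 and 26.2 CPM in OIR and 3.59, 0 and 2.78 CPM in control samples. Kcnj9 also stood apart in cluster 8, at 37.1, 34.5 and 24.6 CPM in OIR and 87.1, 51.6 and 44.5 CPM in control samples, and in cluster 18, while it overlapped in clusters 9, 10, 11 and 12. Kcnj9 was thus lower in OIR without overlap in 2 of the 6 clusters, while the groups overlapped in whole cone bipolar-like sums.

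Piwil4 stood apart in cluster 11, with 33.1, 16.97 and 29.5 CPM in OIR and 8.78, 0 and 0 CPM in control samples. In cluster 9 it overlapped, at 2.31 to 14.6 CPM in OIR and 10.3 to 17.02 CPM in control samples. Sulf2 covered a wide range, from 352 to 392 CPM in OIR and 228 to 272 CPM in control samples in cluster 8 down to 8.49 to 22.7 and 0 to 9.37 CPM in cluster 11. Fabp5 was highest in cluster 10, at 286 to 433 CPM in OIR and 170 to 262 CPM in control samples, and its pooled ratio ran from 1.82 in cluster 10 to 3.70 in cluster 12.

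**Figure D4:**
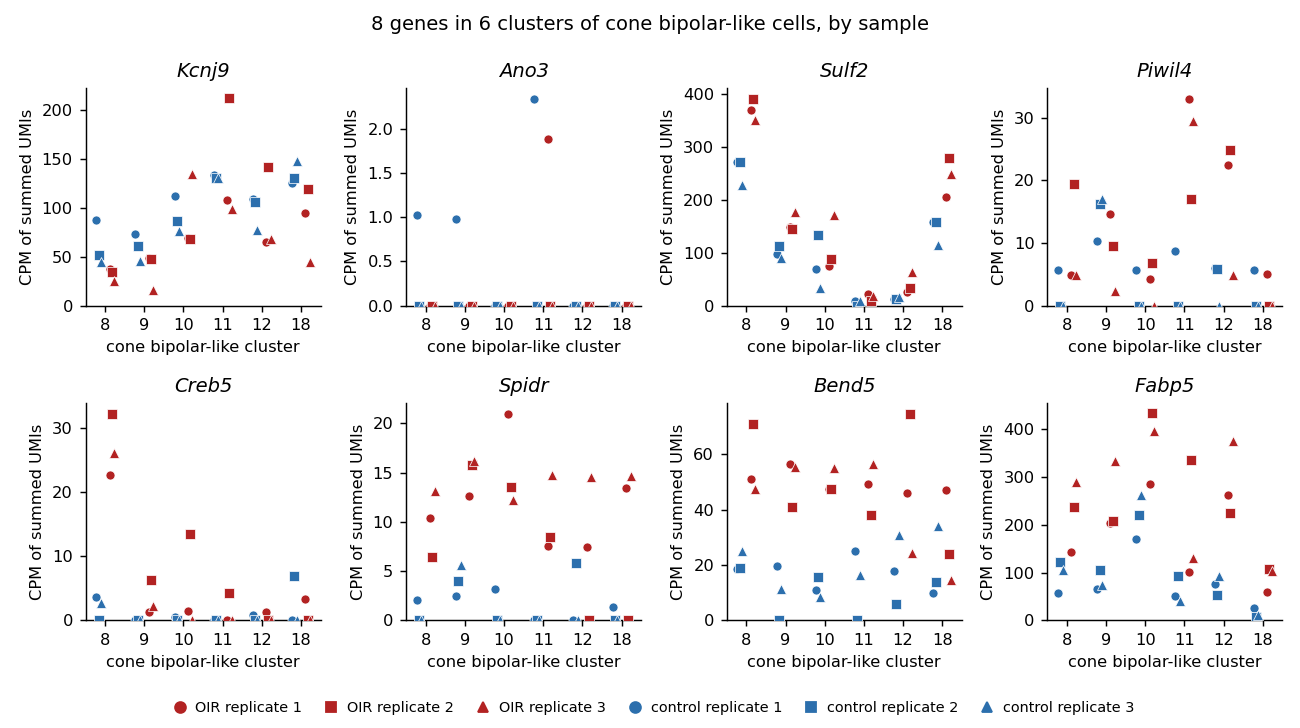
CPM of the 8 genes in the 6 clusters of cone bipolar-like cells (x axis, cluster number; y axes from 0, each gene on its own scale), 1 point per sample (red OIR, blue control, shape gives the replicate number). Creb5 exceeds 20 CPM only in the OIR samples of cluster 8, and Fabp5 is higher in the OIR samples of every cluster.

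Relatives and partners of the 8 genes were looked up in lists that hold none of the 8. The lists were written with earlier results of these data known, so their counts and adjusted p-values are no independent evidence. In rod bipolar-like sums 2 of 77 tested list genes were called, beside 225 of all 9323 genes tested (2.41%). In cone bipolar-like sums 4 of 90 were called (16 with the replicate number as a block), beside 87 of all 10261 genes tested (0.848%). Of the 26 tested bipolar identity genes in rod bipolar-like sums, Sebox, a homeobox factor of rod bipolar cells that also served as a marker, was lower in OIR (579 ± 146 against 1037 ± 183 CPM, SD, n = 3; log2 fold change -0.86 ± 0.20, edgeR adjusted p = 0.037). Of the 31 tested in cone bipolar-like sums, Gng13, a G protein gamma subunit of the mGluR6 cascade, was lower (1351 ± 169 against 2348 ± 269 CPM; -0.84 ± 0.18, edgeR adjusted p = 0.046), and Bhlhe23, a transcription factor of rod bipolar maturation, was higher (206 ± 13.8 against 126 ± 11.98 CPM; 0.64 ± 0.14, edgeR adjusted p = 0.047). The median log2 fold change of the identity genes was 0.10 in rod bipolar-like and -0.10 in cone bipolar-like sums, beside -0.0052 and -0.012 over all genes tested.

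Among the relatives of Fabp5, Fabp7, another fatty acid carrier, was higher in OIR in cone bipolar-like sums (45.3 ± 17.8 against 14.8 ± 8.05 CPM). Its log2 fold change was 1.83 ± 0.35 (edgeR adjusted p = 0.029), and its OIR and control samples did not overlap. The median log2 fold change of the tested lipid-binding relatives was 0.13 over 3 genes in rod bipolar-like sums and 0.40 over 4 genes in cone bipolar-like sums.

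No relative of the other 7 genes was called in either class by edgeR. In rod bipolar-like sums the lists tested 1 inward rectifier gene, 4 anoctamins, 15 heparan sulfate genes, 3 piRNA pathway genes, 14 CREB and ATF factors, 6 recombination genes and 5 BEN domain genes. Their median log2 fold changes were -0.87, 0.19, 0.01, -0.07, -0.05, 0.41 and -0.08 in that order. In cone bipolar-like sums they tested 2, 3, 20, 2, 14, 8 and 6 genes, with medians of -0.81, 0.06, -0.01, 0.05, -0.02, -0.01 and -0.41. Of the 48 genes of these 7 lists tested in rod bipolar-like and the 55 in cone bipolar-like sums, 3 and 8 were below an unadjusted p of 0.05 in edgeR, and DESeq2 called 0 and 0.

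The genes whose pattern was most like each of the 8 were ranked by Spearman correlation of log2(CPM + 1) over 54 sums, 9 cell types in 6 samples, which share libraries and depth. Among 11591 genes with a mean of at least 5 CPM, 1500009C09Rik (0.89) and Tmem130 (0.89) were most like Kcnj9. Sorcs3 (0.69) and Nebl (0.68) were most like Ano3, and Anapc5 (0.84) and Cd200 (0.82) most like Sulf2. Epha3 (0.76) and Igdcc4 (0.70) led for Piwil4, Gsap (0.76) and Fn1 (0.75) for Creb5, and Bcl2l12 (0.73) and Irf9 (0.72) for Spidr. Zik1 (0.77) and Hist3h2a (0.77) led for Bend5, and Cplx2 (0.67) and Cxxc5 (0.64) for Fabp5, which had the weakest likeness.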

How the data were processed

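Retinas of 3 OIR and 3 control samples at P17 were dissociated and sequenced with 10x Genomics single-cell 3′ libraries, and the authors deposited 1 matrix of raw UMI counts per sample. Per the file headers the matrices were written by software version 3.1.0, and the labels name the mm10 genome. The study's methods name another Cell Ranger version and a human build, but the gene identifiers in the matrices are those of mouse. The build is thus taken from the labels, and the software version stays uncertain. The deposited counts were not normalized or pooled, and total UMIs were between 15788524 and 42606878 a sample over 47631 barcodes.

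Barcodes with 500 to 5000 genes and at most 20% mitochondrial UMIs were kept. Samples of each group were joined, and the OIR and control sets were integrated with each other and clustered in Seurat 5.3.0 (1997 variable genes without the 8 genes, 15 components, resolution 0.5). This gave 23 clusters, 1 of which (16 cells) stayed unnamed. Clusters were named by marker lists, with the leading markers weighed first, a rule settled after cluster genes had been seen. No doublets were removed in the reported values, and removal of the highest doublet scores was an alternative. Rebuilt names may differ from the study's.

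UMIs were summed per sample and type (at least 10 cells in each sample). Across all genes edgeR 4.0.16 (quasi-likelihood, TMM, Benjamini-Hochberg) was used in R 4.3.3, and calls needed an adjusted p below 0.05 with an absolute log2 fold change of 0.25 or more. The fit was tested on simulated data. The samples are described as biological replicates of pooled mice, and p-values measure the spread between such pools. Intervals cover counting error only. The 8 genes, the related lists and the tests were chosen with earlier results of these data known. All 8 genes were named, with list genes called in either class (at most 4 in each direction) and the 2 genes most like each member. Some called list genes and marker genes are counted but not reported by name here.

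Same-numbered samples deviated together in both classes. The correlations were 0.347, 0.140 and 0.194 in cone bipolar-like and 0.305, 0.0895 and 0.158 in rod bipolar-like sums. The labels share only the numbers. Alternatives were DESeq2 1.42.0, no low-count filter, replicates 2 and 3 alone, clusters without integration (scanpy 1.11.5), a 10% mitochondrial limit, doublet removal, thinning to 1000 UMIs, each sample left out, the replicate block and a sex term.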

Additional observations from a re-analysis of the deposited data

Results flagged for a closer look

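Piwil4 differed in opposite directions between cell types, with every OIR sample above every control sample in rod bipolar-like (log2 fold change 5.89) and cone bipolar-like sums (0.98) and every OIR sample below every control sample in Mueller-like sums (-1.75). The difference between the types was not tested.

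Cell types with too few cells in a sample entered no fit, and in 4 cases the counting interval of the pooled OIR to control ratio lay wholly above 1. Creb5 read 108.6 CPM in OIR and 8.05 CPM in control VSMC-like cells, on 17 OIR UMIs that were all in OIR replicate 3. Fabp5 read 1489 CPM in OIR and 242.9 CPM in control VSMC-like cells, with 171, 60 and 2 UMIs in OIR replicates 1, 2 and 3. Creb5 read 30.2 CPM in OIR and 8.40 CPM in control astrocyte-like cells, with 12 of 14 OIR UMIs in OIR replicate 2. Fabp5 read 3554 CPM in OIR and 34.7 CPM in control lens-like cells, with 1846 of 1853 OIR UMIs in OIR replicate 2.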

How the results depend on the processing

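The log2 fold changes of all 8 genes in rod bipolar-like sums kept their direction in 15 of 15 alternatives. In cone bipolar-like sums 7 of the 8 did, and Ano3, on 10 UMIs, read 2.27 without control replicate 1. Creb5 in rod bipolar-like sums ranged from 0.19 without OIR replicate 1 to 6.20 without control replicate 1. Counts over all genes moved more. Genes called numbered 225 in rod bipolar-like and 87 in cone bipolar-like sums, against 607 and 417 with no low-count filter, 719 and 312 with replicates 2 and 3 alone and 18 and 20 with thinned cells. With the replicate block they were 622 and 533, and a sex term gave 348 in cone bipolar-like sums. Leaving out 1 sample gave 80 to 350 in rod bipolar-like and 23 to 206 in cone bipolar-like sums, both lowest without OIR replicate 2 and highest without control replicate 1. The higher share in cone bipolar-like sums, 51 of 87 genes, was 41.3% with replicates 2 and 3 alone, 48.4% with the block and 95.7% without OIR replicate 2. List genes called, 2 in rod bipolar-like and 4 in cone bipolar-like sums, were 5 and 7 with DESeq2, 8 and 9 with no filter, 10 and 13 with replicates 2 and 3 alone and 9 and 16 with the replicate block. Thinning left 0 in cone bipolar-like sums, and leaving out 1 sample gave 1 to 6 and 0 to 7. Thinning lowered the genes that differed between the classes from 3856 to 1218, on fewer UMIs. The cause of the other shifts was not tested. Sex and group could not be told apart without control replicate 1 or with replicates 2 and 3 alone. A count of 0 in the smallest rod bipolar-like sum allows up to 3.04 CPM.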
